A study of Mus musculus with 8 samples.

Results

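The genes described here form the MHC class I antigen presentation pathway and were picked by gene name, with no threshold on a measured value. All 9 were found by gene symbol among the 25834 genes of the count table, and all 9 were among the 16251 genes with enough reads to be tested. They were the class I heavy chains H2-K1 and H2-D1, the light chain B2m, the peptide transporter genes Tap1 and Tap2, the tapasin gene Tapbp, the immunoproteasome subunits Psmb8 and Psmb9, and the transcriptional activator Nlrc5. RNA was sequenced from the hippocampus of 8 male mice. Of these, 4 were SAP97-cKO mice, which carried Nestin-cre on 1 allele and the floxed SAP97 gene (SAP97fl/fl) on both. The other 4 were littermate controls, in which Cre, the floxed alleles or both were missing. Which control library had which of these genotypes was not stated in the sources read, and an age was stated for the study's protein samples but not for this RNA. Nestin-Cre acts in the neural lineage, so microglia and blood vessel cells, which arise elsewhere, are not its targets.

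Each library held between 37388177 and 37426572 counted reads, after the authors had resampled all libraries to a common depth, and all 8 hippocampal marker genes checked (among them Prox1, of dentate granule cells, and Wfs1, of CA1 neurons) were detected. Dlg1, which encodes SAP97, fell to 55.2% of the control mean in SAP97-cKO (log2 fold change −0.86, SE 0.124, edgeR adjusted p = 0.143, n = 4 per group). That value counts reads over the whole gene. For a single exon of the gene the study reported a much larger fall, and it checked each animal by western blot. Genes were called at a false discovery rate under 0.25, the rate used in the study. At that rate 46 genes fell in SAP97-cKO and 2 rose across the transcriptome. 

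MHC class I molecules display fragments of a cell's own proteins at its surface, where T cells and natural killer cells read them. Fragments are cut by the proteasome, carried into the endoplasmic reticulum by the TAP1/TAP2 transporter, and loaded with the help of tapasin onto a heavy chain paired with β2-microglobulin. Interferons raise the expression of most of these genes, in part through NLRC5. The induced subunits PSMB8 and PSMB9 then replace constitutive subunits in newly made proteasomes. In brain, microglia and endothelial cells express class I genes at high levels, and neuronal class I molecules have been studied for roles at synapses in the hippocampus.

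On the mouse build GRCm38 (GENCODE M21 coordinates, matched by gene identifier), 7 of the 9 genes lay in the MHC region on chromosome 17. Tapbp (ENSMUSG00000024308) spanned chr17:33915899-33929292 on the plus strand. H2-K1 (ENSMUSG00000061232) spanned chr17:33996017-34000347 on the minus strand, and H2-D1 (ENSMUSG00000073411) spanned chr17:35262730-35267499 on the plus strand. Between them lay Psmb9 (ENSMUSG00000096727, minus strand) at chr17:34181987-34187764, Tap1 (ENSMUSG00000037321, plus strand, like the next pair) at chr17:34187553-34197225, Psmb8 (ENSMUSG00000024338) at chr17:34197721-34201454 and Tap2 (ENSMUSG00000024339) at chr17:34203527-34216321. The 2 genes outside the region were B2m (ENSMUSG00000060802) at chr2:122147686-122153083 and Nlrc5 (ENSMUSG00000074151) at chr8:94434356-94527272, both on the plus strand. Psmb9 and Tap1 pointed away from each other, and their annotated ends overlapped by 212 bases on opposite strands.

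Promoter stretches of H2-K1, H2-D1, B2m and the Tap1/Psmb9 pair are printed next, because these genes carry the best known class I control elements. The stretches of Tapbp and Psmb8 are not printed. Sequences and gene starts came from RefSeq on GRCm38.p6, where 7 of the 9 genes had a promoter entry of 250 bases before to 50 bases after the start. Tap2 and Nlrc5 had none, and H2-K1 had 2 that overlap. Capitals mark matches, on either strand, to an interferon-stimulated response element core (GAAANNGAA, or GAANNGAAA with mirrored spacing), a kappa B motif (GGGNNTTCC), the first letters of a cyclic AMP response element (TGACG) and a Y box (CCAAT). The RefSeq start of H2-D1 (35263094) lies 364 bases inside the GENCODE span given above, so its stretch is upstream in RefSeq and within the gene in GENCODE. The stretch between the RefSeq starts of Psmb9 and Tap1 likewise lies within Psmb9 in GENCODE, where the 2 genes overlap. The RefSeq promoter window of Tapbp, from 33919228, also lies within the GENCODE span of Tapbp. The first line is H2-K1 (chr17:34000334-34000537, minus strand), the second H2-D1 (chr17:35262844-35263047, plus strand), the third B2m (chr2:122147527-122147686, plus strand) and the fourth the 225 bases between the starts of Psmb9 and Tap1 (chr17:34187331-34187555, plus strand).
H2-K1: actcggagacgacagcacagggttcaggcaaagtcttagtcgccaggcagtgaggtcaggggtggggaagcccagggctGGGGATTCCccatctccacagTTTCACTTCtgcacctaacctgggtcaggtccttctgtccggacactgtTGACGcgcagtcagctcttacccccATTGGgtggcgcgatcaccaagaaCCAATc
H2-D1: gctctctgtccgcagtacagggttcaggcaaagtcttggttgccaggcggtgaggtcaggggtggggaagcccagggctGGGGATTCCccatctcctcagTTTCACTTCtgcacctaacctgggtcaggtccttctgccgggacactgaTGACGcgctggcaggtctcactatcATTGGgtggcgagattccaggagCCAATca
B2m: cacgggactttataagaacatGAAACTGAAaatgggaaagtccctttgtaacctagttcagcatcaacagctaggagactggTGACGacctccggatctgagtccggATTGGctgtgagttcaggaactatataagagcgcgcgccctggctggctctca
Tap1 and Psmb9: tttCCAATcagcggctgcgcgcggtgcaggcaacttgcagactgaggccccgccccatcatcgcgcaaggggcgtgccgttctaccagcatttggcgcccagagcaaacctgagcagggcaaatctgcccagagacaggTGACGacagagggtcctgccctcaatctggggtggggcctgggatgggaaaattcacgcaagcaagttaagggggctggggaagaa

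The H2-K1 and H2-D1 stretches were near copies, with 177 identical bases in 205 alignment columns (86.3%), and both held the motifs in the same order. Over the full promoter windows, GAANNGAAA and GGGNNTTCC were found in H2-K1 and H2-D1 only among the 7, against 7.52% and 5.82% of all 32851 mouse promoters of the same length. GAAANNGAA was found in B2m, against 8.56% of all promoters. TGACG was found in 5 of the 7 (H2-K1, H2-D1, B2m, Tap1 and Psmb9), against 20.8%. CCAAT was found in 6 of the 7, all but Psmb8, against 37.4%. GCAACNG, a core of the X1 box, was found in none of the 7 and in 12.7% of all promoters. Psmb9 and Tap1 share their matches to TGACG and CCAAT, which are 1 site each in the bases between their RefSeq starts, counted for both genes. The 7 were counted by gene and the shares by promoter entry, so a gene with more than 1 entry, such as H2-K1, had more chances to match. A match is a run of letters in this window, not evidence of binding.

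Of the 9 genes, 8 had a mean difference towards lower values in SAP97-cKO and 1, Tap2, towards higher, but none passed the false discovery rate, at which 0.283% of all tested genes were lower. Of the 9, 3 (H2-D1, Tapbp and B2m) were lower at an unadjusted p under 0.05, against 7.01% of all tested genes, and none was higher, against 4.73%. For no gene were all 4 SAP97-cKO libraries below all 4 controls, which held for 3.47% of all tested genes. The median log2 fold change of the 9 was −0.23, beside −0.01 over all tested genes, of which 52.8% were lower. The genes share a pathway and several share regulators, so they are not independent measurements.

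**Figure D1:**
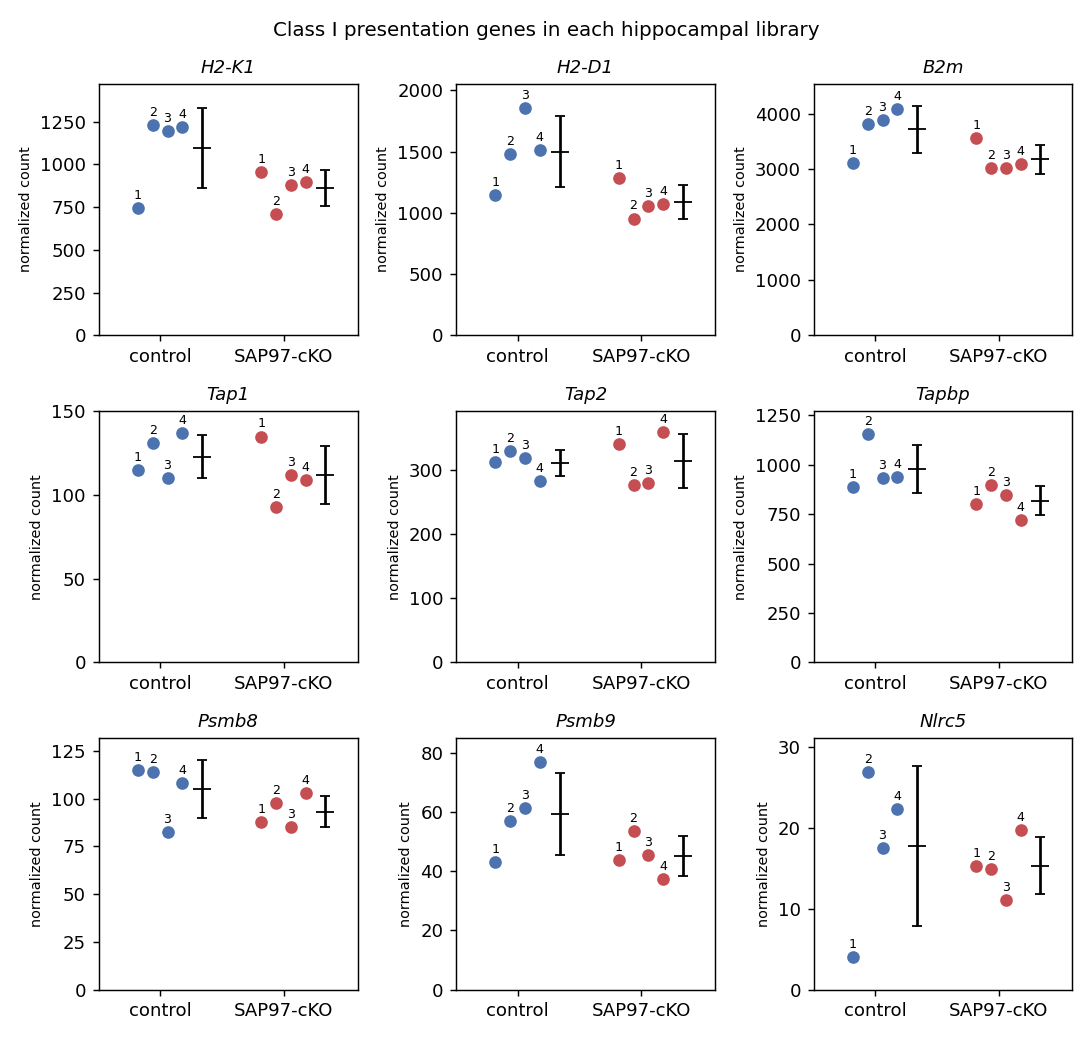
Normalised read counts of the 9 class I genes in each library (y axis, linear and starting at 0; one panel per gene; numbers are replicate numbers, bars are group means with SD, n = 4). For H2-K1 the library control replicate 1, at 742, lies apart from the other controls at 1194 to 1230, and no panel shows complete separation of the genotypes.

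Levels on the RPKM scale, corrected for exon length and library size, placed the genes over a wide range of levels. In control hippocampus B2m stood highest at 116 ± 13.1 (SD, n = 4), followed by H2-D1 at 15.5 ± 3.00, H2-K1 at 9.97 ± 2.15 and Tapbp at 7.21 ± 0.891. Tap2 stood at 2.20 ± 0.139, Psmb8 at 0.828 ± 0.12, Tap1 at 0.601 ± 0.0622, Psmb9 at 0.434 ± 0.101 and Nlrc5 at 0.0556 ± 0.0311. The control ranges of neighbours in this order overlapped for H2-K1 and Tapbp, for Psmb8 and Tap1, and for Tap1 and Psmb9, although within each of the 4 control libraries the first of each pair was higher. Over all 8 libraries every neighbour in the order kept its place in 8, apart from H2-K1 above Tapbp in 7. The order of the means was the same in SAP97-cKO.

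The heavy chains carry the peptide groove of the class I molecule. H2-D1 had normalised read counts of 1149, 1479, 1858 and 1512 in control replicates 1 to 4, and of 1285, 954, 1055 and 1075 in SAP97-cKO replicates 1 to 4. The groups overlapped only because control replicate 1 lay below SAP97-cKO replicate 1, and the other 3 SAP97-cKO libraries were below every control. The mean was 1500 ± 290 in control and 1092 ± 139 in SAP97-cKO, or 72.8% of control, with a log2 fold change of −0.46 (SE 0.139, 95% interval −0.77 to −0.15, edgeR adjusted p = 0.341). This was the largest difference in log2 fold change among the 9 genes. The exact two-sided permutation test of the 8 values gave p = 0.0571, where 0.0286 is the smallest value that 70 assignments of 4 against 4 allow.

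H2-K1 had counts of 742, 1230, 1194 and 1217 in control replicates 1 to 4, and of 955, 711, 880 and 894 in SAP97-cKO replicates 1 to 4. Here 3 controls lay above every SAP97-cKO library, while control replicate 1 lay below all SAP97-cKO libraries but replicate 2. The mean was 1096 ± 236 in control and 860 ± 105 in SAP97-cKO, or 78.5%, with a log2 fold change of −0.35 (SE 0.158, 95% interval −0.70 to 0.00, edgeR adjusted p = 0.425, exact permutation p = 0.114). The ratio of H2-K1 to H2-D1, per length, was 0.642 ± 0.0887 in control and 0.692 ± 0.0449 in SAP97-cKO, a log2 difference of 0.12 (exact permutation p = 0.314, n = 4 per group). Heavy chain genes are close relatives, and of the 50-base stretches of their exons 14.3% for H2-D1 and 8.11% for H2-K1 also occurred in other genes, so part of their reads may have been split or dropped in counting.

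B2m encodes the light chain that every classical class I molecule needs to reach the cell surface. Its counts were 3109, 3805, 3890 and 4076 in control replicates 1 to 4, and 3561, 3023, 3014 and 3099 in SAP97-cKO replicates 1 to 4. The pattern was that of H2-D1, with control replicate 1 low among the controls, SAP97-cKO replicate 1 high among the SAP97-cKO libraries, and the other 3 SAP97-cKO libraries below every control. The mean was 3720 ± 423 in control and 3174 ± 261 in SAP97-cKO, or 85.3%, with a log2 fold change of −0.23 (SE 0.0932, 95% interval −0.44 to −0.02, edgeR adjusted p = 0.399, exact permutation p = 0.0571). H2-K1 and H2-D1 summed, relative to B2m per length, gave 0.219 ± 0.0236 in control and 0.194 ± 0.0132 in SAP97-cKO, a log2 difference of −0.18 (exact permutation p = 0.114). Patl2 lies over B2m on the opposite strand but held at most 9 reads in any library.

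Tapbp encodes tapasin, which holds the empty heavy chain at the peptide transporter. Its counts were 886, 1157, 935 and 937 in control replicates 1 to 4, and 804, 900, 845 and 723 in SAP97-cKO replicates 1 to 4. The groups overlapped at a single pair of libraries, since only SAP97-cKO replicate 2 was above control replicate 1. The mean was 979 ± 121 in control and 818 ± 74.2 in SAP97-cKO, or 83.6%, with a log2 fold change of −0.26 (SE 0.102, 95% interval −0.48 to −0.03, edgeR adjusted p = 0.387, exact permutation p = 0.0571). The value turned to 0.10 when the mean of the meningeal fibroblast markers was a covariate, a list that itself differed between genotypes. Zbtb22 overlaps Tapbp by 3422 bases on the same strand, and all of it lies within the annotated span of Tapbp. Reads in any exon that both genes share may have been split or dropped in counting. Zbtb22 had a mean count of 1197 in control and a log2 fold change of the other sign, 0.17 (SE 0.0661, edgeR adjusted p = 0.381).

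The TAP1/TAP2 dimer moves peptides into the endoplasmic reticulum, and neither gene differed beyond the spread between libraries. Tap1 counts were 115, 131, 110 and 137 in control replicates 1 to 4 and 135, 92.6, 112 and 109 in SAP97-cKO replicates 1 to 4, with a log2 fold change of −0.13 (SE 0.154, 95% interval −0.47 to 0.21, edgeR adjusted p = 0.733). Tap2 counts were 312, 329, 319 and 283 in control and 340, 277, 280 and 359 in SAP97-cKO, with a log2 fold change of 0.01 (SE 0.116, 95% interval −0.24 to 0.27, edgeR adjusted p = 0.972). SAP97-cKO libraries lay on both sides of the controls for Tap2, and for Tap1 the highest value of SAP97-cKO was within the control range while 2 values were below it. The sign for Tap2 was not stable, since it was −0.03 without scaling between libraries and between −0.05 and 0.07 when single libraries were left out.

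Psmb8 and Psmb9 encode the interferon-inducible catalytic subunits that take the places of PSMB5 and PSMB6. Psmb9 counts were 43.0, 56.8, 61.2 and 76.7 in control replicates 1 to 4 and 43.8, 53.7, 45.6 and 37.4 in SAP97-cKO replicates 1 to 4. Here 3 controls were above every SAP97-cKO library, and control replicate 1 lay among them. The mean was 59.4 ± 13.9 in control and 45.1 ± 6.75 in SAP97-cKO, or 75.9%, with a log2 fold change of −0.40 (SE 0.222, 95% interval −0.89 to 0.10, edgeR adjusted p = 0.493, exact permutation p = 0.114). Psmb8 counts were 115, 114, 82.5 and 108 in control and 87.6, 97.5, 85.1 and 103 in SAP97-cKO, with a log2 fold change of −0.17 (SE 0.157, 95% interval −0.52 to 0.18, edgeR adjusted p = 0.664). For Psmb8 every SAP97-cKO library lay within the control range.

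The constitutive partners were far more abundant. Psmb5 had mean counts of 2505 ± 694 in control and 2304 ± 679 in SAP97-cKO (log2 fold change −0.12, SE 0.225, edgeR adjusted p = 0.843), and Psmb6 of 3256 ± 429 and 3032 ± 217 (log2 fold change −0.10, SE 0.0949, edgeR adjusted p = 0.659). The ratio of Psmb9 to Psmb6 per length was 0.00928 ± 0.00138 in control and 0.00765 ± 0.00125 in SAP97-cKO, a log2 difference of −0.28 (exact permutation p = 0.143, n = 4 per group). The ratio of Psmb8 to Psmb5 was 0.0116 ± 0.00289 and 0.0113 ± 0.00229, a log2 difference of −0.03 (exact permutation p = 0.914). None of the 4 ratios compared within the pathway passed 0.05 before adjustment. Of the 50-base stretches of Psmb5, 57.1% also occurred in other genes, mostly the pseudogene Gm3375, so its level is uncertain.

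Nlrc5, the activator of class I genes, was close to the limit of detection. Its counts were 4.0, 26.9, 17.5 and 22.3 in control replicates 1 to 4 and 15.3, 14.9, 11.1 and 19.7 in SAP97-cKO replicates 1 to 4, from 72 and 60 reads in all. The low value of control replicate 1 gave this group the wider spread, and every SAP97-cKO library lay within the control range. The log2 fold change was −0.21 (SE 0.465, 95% interval −1.25 to 0.82, edgeR adjusted p = 0.870). The interval runs from 42.2% to 177% of the control level, so it holds both a large loss and a smaller gain.

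The number of the 9 genes called changed most with the omission of 1 library, control replicate 1. Without that library the median log2 fold change of the 9 moved from −0.23 to −0.31. Control replicate 1 was the lowest control for 6 of the 9 genes and below the control mean for 7. Without it, H2-K1 (adjusted p = 0.179), H2-D1 (0.179), B2m (0.184) and Tapbp (0.232) passed the false discovery rate in edgeR, which is 4 of 9 genes, beside 5.83% of all genes tested in that fit. The SAP97-cKO libraries were then below all 3 remaining controls for 5 of 9 genes, Psmb9 being the fifth, beside 8.05% of all genes tested, a count chosen after the values had been seen. Without SAP97-cKO replicate 1, H2-D1 alone of the 9 passed (adjusted p = 0.211), in a fit where 2.73% of all tested genes were called lower. Leaving out any of the other 6 libraries gave no call. Over all 8 omissions the log2 fold change stayed between −0.56 and −0.32 for H2-D1, between −0.50 and −0.27 for H2-K1, between −0.31 and −0.18 for B2m and between −0.31 and −0.17 for Tapbp. With all 8 libraries, DESeq2 called H2-D1 (adjusted p = 0.111) and no other of the 9, beside 3.62% of all tested genes that it called lower, and limma-voom called none.

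**Figure D2:**
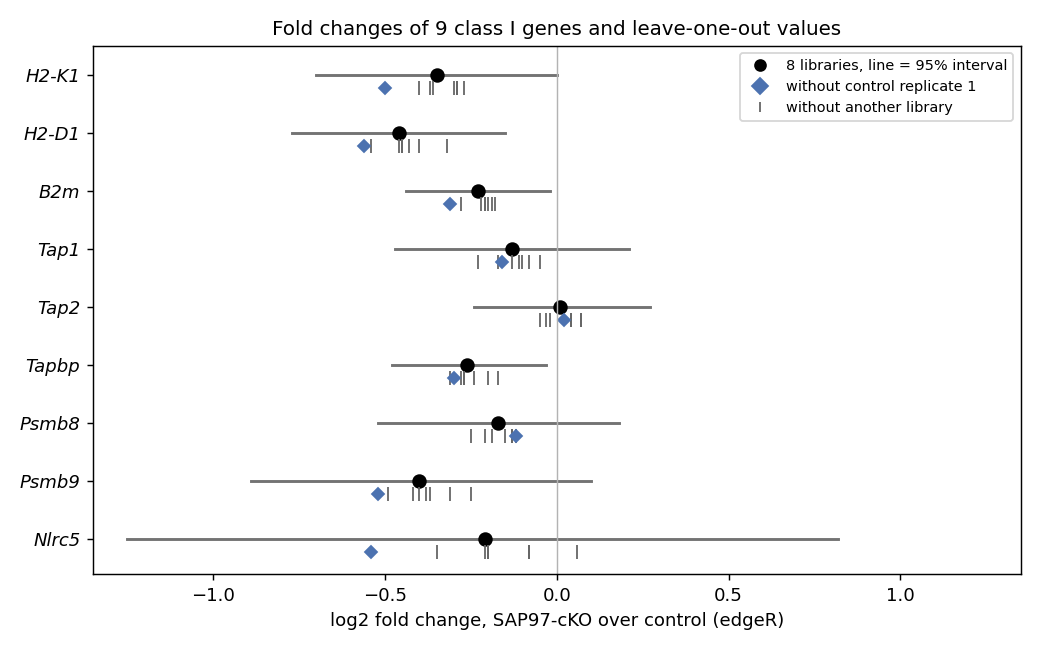
Log2 fold changes of the 9 class I genes from edgeR with all 8 libraries (black points; lines are 95% intervals) and with single libraries left out (ticks; diamonds are without control replicate 1). Without control replicate 1, Nlrc5 moves furthest (−0.21 to −0.54), H2-K1, H2-D1, B2m, Tap1, Tapbp and Psmb9 also move away from 0 (H2-D1 from −0.46 to −0.56), Psmb8 moves towards 0 (−0.17 to −0.12) and Tap2 stays near 0.

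H2-K1, H2-D1 and B2m varied together from library to library. Over the 8 libraries, log2 values (normalised count plus 1) correlated with a Pearson r of 0.879 (Spearman rho 0.833) for H2-K1 and H2-D1, 0.914 (0.810) for H2-K1 and B2m, and 0.918 (0.952) for H2-D1 and B2m. After the genotype means had been removed, r was 0.834, 0.876 and 0.847. With the 2 libraries farthest from the median of the first gene of each pair left out, r was 0.878, 0.857 and 0.981. These are descriptions without a test, the points share their libraries, and reads shared between H2-K1 and H2-D1 would add to their likeness.

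Those were the 3 highest values of r. Of the 36 pairs among the 9 genes, 31 had a positive r, the median was 0.310, and the values ran from −0.509 for Tap2 and Psmb9 to 0.918 for H2-D1 and B2m. Tap1 and Psmb9, whose RefSeq starts are separated by the 225 bases printed above, had an r of 0.274, and 0.0541 with genotype means removed. Psmb8 with H2-D1 had an r of −0.116. Some other pairs were as high as the 3 above on single measures. H2-K1 and Nlrc5 had an r of 0.696 and a rho of 0.857, with an r of 0.851 after the genotype means had been removed. Tapbp and Psmb9 had an r of 0.658 and a rho of 0.857, and Tap1 and H2-D1 had an r of 0.522, which was 0.903 without the 2 libraries farthest from the median of H2-D1. The tested genes outside the 9 with the most similar profile were Nmral1 for H2-K1 (r = 0.984), Fam63a for H2-D1 (0.974), Ttc32 for B2m (0.979), Desi1 for Tap1 (0.967), Slc39a7 for Tap2 (0.952), Galm for Tapbp (0.986), Tlr13 for Psmb8 (0.944), Dync2li1 for Psmb9 (0.978) and Gm14113 for Nlrc5 (0.979). Each is the highest of the correlations with all other tested genes, over 8 libraries.

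**Figure D3:**
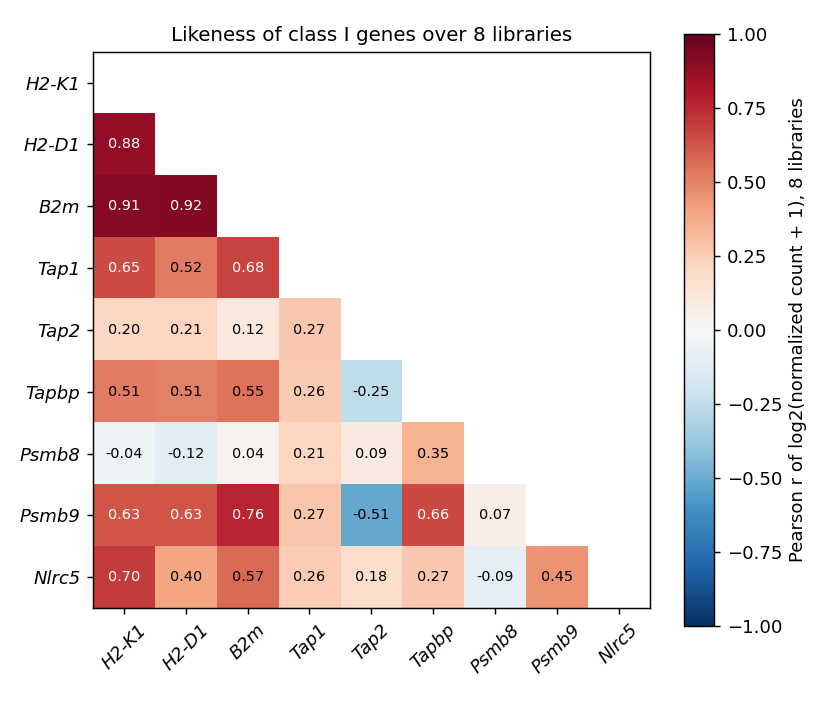
Pearson correlations of log2 normalised counts (plus 1) between the 9 class I genes over the 8 libraries (cells; colour scale from −1 to 1). The block of high values joins H2-K1, H2-D1 and B2m (0.879 to 0.918), while Tap2 and Psmb8 have low or negative values with most of the others, as low as −0.509.

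Other genes of the pathway were read from lists chosen by function. The counts in these lists, and in the cell type lists further below, stand beside shares over all tested genes in edgeR. These were 7.01% lower and 4.73% higher at an unadjusted p under 0.05, and 0.283% lower at the false discovery rate. Of 22 other class I heavy chain and class I-like genes, 18 were in the table and 15 were tested. None passed the false discovery rate in edgeR, 4 were lower and 1 was higher at an unadjusted p under 0.05, and the median log2 fold change was −0.33. H2-Q1, a Qa-region heavy chain, had counts of 60.0, 38.9, 21.4 and 52.4 in control and 9.16, 25.9, 5.06 and 6.23 in SAP97-cKO (log2 fold change −1.88, SE 0.508, edgeR adjusted p = 0.316). A single SAP97-cKO library, replicate 2, lay above the lowest control, and 7.4% of the 50-base stretches of H2-D1 also occurred in H2-Q1. H2-M3, which presents formylated peptides, had a log2 fold change of −0.67 (SE 0.243, adjusted p = 0.368), H2-T23, the mouse Qa-1 gene, of −0.59 (SE 0.261, adjusted p = 0.419), and Fcgrt, the neonatal Fc receptor and the most abundant of the list, of −0.37 (SE 0.140, adjusted p = 0.373). H2-M5 was the one with a positive value at that p, at 0.93 (SE 0.335, adjusted p = 0.368) from control counts of 6.0 to 10.7.

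Among 12 genes for class I folding, loading and peptide trimming, none passed the false discovery rate in edgeR, 2 were lower at an unadjusted p under 0.05 and the median log2 fold change was −0.11. Pdia3 encodes ERp57, the disulfide isomerase that works beside tapasin. Its counts were 10755, 10459, 9210 and 9775 in control and 7854, 8469, 8011 and 8166 in SAP97-cKO (log2 fold change −0.31, SE 0.0678, adjusted p = 0.282). The groups did not overlap, which held in this direction for 3.47% of all tested genes. The study, with limma-voom on the same libraries, listed Pdia3 among its significantly changed genes. Calr, the chaperone calreticulin, had a log2 fold change of −0.25 (SE 0.0882, adjusted p = 0.365), and Canx, calnexin, the most abundant of the list, of −0.09. These chaperones serve many proteins besides class I molecules. Among 20 other proteasome subunits and activators none was lower or higher even at an unadjusted p under 0.05 in edgeR, and the median was −0.09. Psmb4, a structural subunit and the most abundant of them, had a log2 fold change of −0.11 (SE 0.11). Psmb10, the remaining immunoproteasome subunit, and the interferon-inducible activator genes Psme1 and Psme2 each had a log2 fold change of −0.08.

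Of the 20 tested regulators of class I transcription (21 listed), none passed the false discovery rate in edgeR, 1 was lower at an unadjusted p under 0.05 and the median was −0.04. The 1 was Ifngr1, a chain of the interferon gamma receptor (log2 fold change −0.20, SE 0.0864, adjusted p = 0.411). Jak1, a kinase of the interferon receptors and the most abundant of the list, had a value of 0.11 (SE 0.0771). Rfx5, a subunit of the factor that binds class I and class II promoters with NLRC5 or CIITA, had a value of 0.09, and Ciita had too few reads to be tested. Of the 11 class I receptor and partner genes in the table, 1 had enough reads to be tested, the insulin receptor gene Insr, which is known to associate with class I molecules (log2 fold change 0.14). Pirb, which encodes a neuronal class I receptor, held 69 reads over all 8 libraries.

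The lists of class II presentation and of the interferon response had lower median log2 fold changes than the 9 class I genes, a difference that was not tested. Several of the cell type lists given further below also had lower medians than the 9. Of 9 tested class II genes, none passed in edgeR, 4 were lower at an unadjusted p under 0.05 and the median log2 fold change was −0.59. The 4 were H2-Eb1 (−1.17, SE 0.264, adjusted p = 0.283), H2-Aa (−1.37, SE 0.368, 0.316), Cd74, the invariant chain (−1.16, SE 0.373, 0.347), and H2-Ab1 (−1.29, SE 0.430, 0.352). For H2-Eb1 the control counts were 72, 163, 109 and 106 and the SAP97-cKO counts 54.0, 55.7, 55.7 and 34.2. These had no overlap, as was so in this direction for 3.47% of all tested genes. Ctss, a protease of the class II pathway and the most abundant of the list, had a value of −0.15.

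Of 22 tested interferon response genes, 1 fell at the false discovery rate, 10 were lower at an unadjusted p under 0.05, none was higher, and the median log2 fold change was −0.46. Ifit3, an interferon-induced antiviral gene, had counts of 421, 308, 271 and 273 in control and 221, 157, 177 and 177 in SAP97-cKO (log2 fold change −0.80, SE 0.168, edgeR adjusted p = 0.2496, just under the threshold). The study had already listed Ifit3 as changed in these libraries. Ifi27, the most abundant of the list, had a log2 fold change of −0.43 (SE 0.104, adjusted p = 0.302), Ifitm3 of −0.57 (SE 0.144, 0.316) and Ifit1 of −1.09 (SE 0.286, 0.316). The summed count of this list was 5425 to 5999 in control and 4246 to 4592 in SAP97-cKO. Control replicate 1, at 5425, was the lowest control but did not fall into the SAP97-cKO range, unlike its H2-K1 and H2-D1 values.

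**Figure D4:**
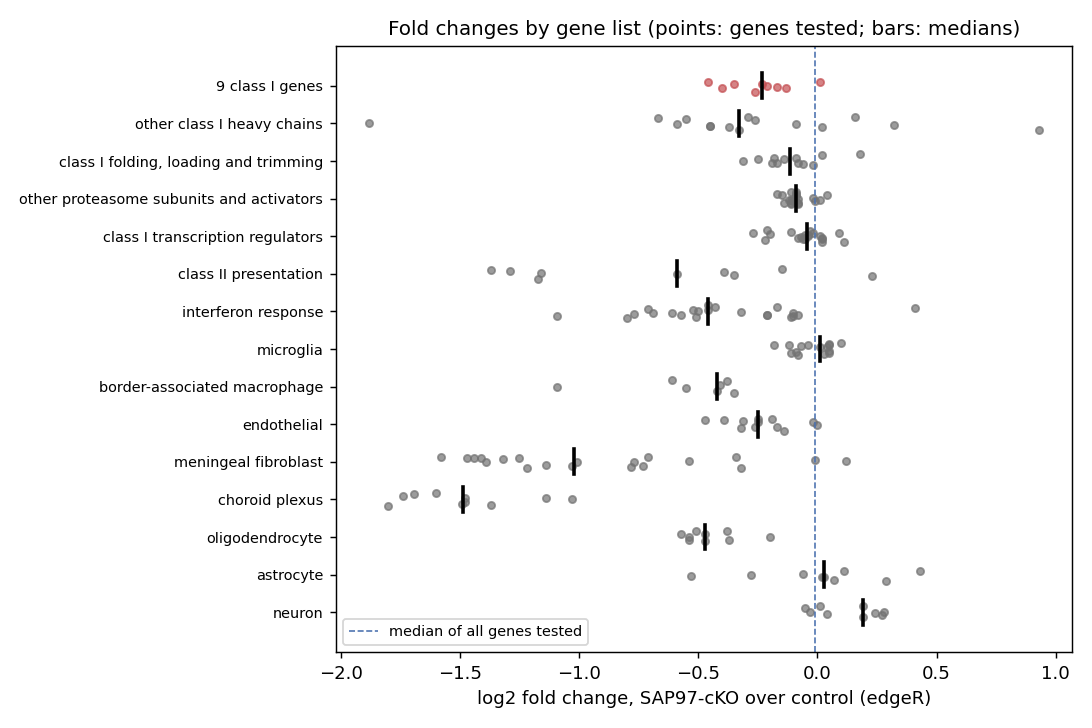
Log2 fold changes (x axis, edgeR, SAP97-cKO over control) of the tested genes of each pathway and cell type list; each point is a gene and the bar is the list's median. Class II presentation (median −0.59) and the interferon response (−0.46) have medians further below 0 than that of the 9 class I genes (−0.23). So do choroid plexus (−1.49), meningeal fibroblast (−1.02), oligodendrocyte (−0.47), border-associated macrophage (−0.42), other class I heavy chain (−0.33) and endothelial genes (−0.25). The other proteasome subunits (−0.09) and microglia markers (0.01) have medians near 0, and the neuronal median is above 0 (0.19).

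In whole hippocampus, fewer cells of a type and less RNA per cell cannot be told apart, so markers of the cell types that express class I genes were read in the same libraries. None of the 15 microglia markers was lower or higher at an unadjusted p under 0.05 in edgeR. Their median log2 fold change was 0.01 and their summed counts were 19467 to 25525 in control and 18940 to 24115 in SAP97-cKO. Fitting the microglia mean beside genotype gave log2 fold changes of −0.46 for H2-D1, −0.34 for H2-K1 and −0.22 for B2m, within 0.01 of the values without it. Of the 12 endothelial markers, 2 were lower at an unadjusted p under 0.05, the median was −0.25 and the sums were 13355 to 14710 in control and 9692 to 15398 in SAP97-cKO. With the endothelial mean as a covariate, the values were −0.34 for H2-D1, −0.29 for H2-K1 and −0.16 for B2m, and none of the 9 genes had an unadjusted p under 0.05.

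Border-associated macrophages express class II genes. Of their 7 markers, 2 were lower at an unadjusted p under 0.05, the median was −0.42, and the sums were 425 to 724 in control and 230 to 457 in SAP97-cKO. Markers of meningeal fibroblasts, cells of the membranes around the brain, had the most calls of the cell type lists. Of the 20, 7 fell at the false discovery rate and 16 were lower at an unadjusted p under 0.05. Their median was −1.02, with sums of 17404 to 28430 in control and 10928 to 16792 in SAP97-cKO. The study had already reported all 7 as changed in these libraries, and the list was chosen with earlier results known, so its calls are not independent of them. With this list as a covariate H2-D1 was at −0.72, H2-K1 at −0.52 and B2m at −0.29, while Psmb9 was at −0.18, Psmb8 at −0.08 and Tapbp at 0.10. Of the 9 genes 1 then had an unadjusted p under 0.05, and every adjusted p was 1.0. The median of the choroid plexus markers was further below 0, at −1.49. All 10 were lower, but none at an unadjusted p under 0.05. The summed choroid plexus markers varied from 6546 to 259688 in control and from 3736 to 89063 in SAP97-cKO. Of the 11 lymphocyte markers 3 had enough reads to be tested, and Cd3d, Cd3e and Cd3g held 4, 18 and 5 reads over all libraries. No marker of any list was at 0 in all libraries.

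Among neural cells, all 9 oligodendrocyte markers had negative values (median −0.47), 6 of them at an unadjusted p under 0.05, with sums of 222325 to 356587 in control and 172741 to 312638 in SAP97-cKO, where control replicate 1 was the lowest control and SAP97-cKO replicate 1 the highest SAP97-cKO library, as for B2m. The 9 neuronal markers had a median of 0.19, with 4 higher at an unadjusted p under 0.05 and sums of 419115 to 464181 in control and 467813 to 525786 in SAP97-cKO. The astrocyte markers had a median of 0.03. Of the astrocyte markers 1, the gap junction gene Gjb6, fell at the false discovery rate (adjusted p = 0.2496), and no microglia, macrophage, endothelial, oligodendrocyte, neuronal or choroid plexus marker passed it. Gjb6 was also on the study's list of changed genes. The part that RNA of any of these cell types had in the class I values was not tested. The covariate fits cannot settle it, because a list that differs between genotypes takes up part of the genotype difference. With the meningeal fibroblast mean as a covariate, Dlg1 itself moved from −0.86 to −0.45. A mean of markers also does not measure the class I RNA of a cell type.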

How the data were processed

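The authors sequenced hippocampal RNA (TruSeq RNA libraries, Illumina HiSeq) of male mice, 4 per genotype. Per the study's methods, the authors aligned reads with STAR 2.5.3a to mm10 (GRCm38.p5), removed ribosomal and mitochondrial reads and resampled libraries to a common depth with PORT, and counted reads per Ensembl gene. The deposited values used here are these whole-number counts. Resampling equalises depth, so library totals do not show how deeply each library was sequenced. Whether counting used strand was not stated in the sources read, so reads of overlapping genes on opposite strands may not be separated. The table also holds the authors' own fold changes, p-values and q-values of the same comparison, which were not used.

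The edgeR function filterByExpr, with its minimum count of 10 and minimum total of 15, kept 16251 genes and dropped 9583. Counts were scaled by TMM (factors 0.964 to 1.03) and tested by quasi-likelihood F tests (edgeR 4.0.16, R 4.3.3), with genotype as the only term and Benjamini-Hochberg adjustment over all tested genes, at a false discovery rate of 0.25. Where an adjusted p stands without a tool, it is from this test. Normalised counts are counts divided by the effective library size and multiplied by its mean. Levels per kilobase used the union of annotated exons. Single values and ratios were compared by exact two-sided permutation of the 8 libraries. The edgeR p-values set the difference between genotypes against the spread between these libraries. The fit was tested on simulated counts with known changes. limma 3.58.1 (voom) and DESeq2 1.42.0, other scalings and filters, a replicate block, covariates and the omission of each library were alternatives.

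The 9 genes and all gene lists were chosen with earlier results of these data known. The genes named outside the 9 were, in each pathway list, those past the false discovery rate, up to 4 with the smallest unadjusted p under 0.05 and the most abundant, with a few more (Psmb10, Psme1, Psme2, Rfx5, Ciita, Pirb, Patl2, Zbtb22 and Gjb6) named after their values were seen. Likeness between genes was computed on log2 normalised counts plus 1. The mirrored motif GAANNGAAA was added after the promoters had been read. H2-L, H2-M2, H2-M10.1 and Cd1d2 were not analysed here.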

Additional observations from a re-analysis of the deposited data

Results flagged for a closer look

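Of the 28 sets of 4 values tested for a value far from the rest (9 genes, Dlg1 and 4 ratios in each genotype), 3 were marked by Dixon's test at 95%, of which chance marks about 1 in 20. H2-K1 had a normalised count of 742 in control replicate 1, where the other controls lay between 1194 and 1230. B2m had a normalised count of 3561 in SAP97-cKO replicate 1, where the other SAP97-cKO libraries lay between 3014 and 3099. The ratio of H2-K1 and H2-D1 summed to B2m was 0.174 in SAP97-cKO replicate 2, where the other SAP97-cKO libraries lay between 0.199 and 0.202.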

How the results depend on the processing

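The median log2 fold change of the 9 class I genes kept its sign in all settings, between −0.31 and −0.17 when single libraries were left out. The number of the 9 called was 0 in edgeR with all libraries, 1 with DESeq2 and 0 to 4 when single libraries were left out, the 4 without control replicate 1. Genes called across the transcriptome numbered 48, but 1033 with DESeq2, 95 without scaling, 104 without a filter, 278 with the microglia covariate, 0 with the meningeal fibroblast covariate (233 lower and 398 higher at an unadjusted p under 0.05), 0 with the endothelial covariate (562 and 470), 0 at a rate of 0.05 (1139 and 768) and 0 to 1675 when single libraries were left out. Called genes of the 7 pathway lists numbered 1, but 16 with DESeq2, 4 without scaling, 5 without a filter, 4 with the microglia covariate, 0 to 18 when single libraries were left out, and 0 with limma-voom, DESeq2 size factors in edgeR, at least 10 counts in every library, the meningeal fibroblast or endothelial covariate or a rate of 0.05. Dlg1 lost its call with the meningeal fibroblast covariate (−0.45) and the endothelial covariate (−0.83), and ran from −1.0 to −0.78 when single libraries were left out, where the omission of control replicate 2, SAP97-cKO replicate 3 or SAP97-cKO replicate 4 ended the call. The sign turned for Tap2 without scaling (−0.03), with the meningeal fibroblast covariate (−0.23) and when single libraries were left out (−0.05 to 0.07), for Tapbp with the meningeal fibroblast covariate (0.10), for Nlrc5 with limma-voom (0.04) and when single libraries were left out (−0.54 to 0.06), and for the ratio of Psmb8 to Psmb5 when single libraries were left out (−0.18 to 0.11). The cause was not tested. Scaling by library totals alone moved the median of all genes by −0.05.

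Same-numbered libraries of the 2 genotypes deviated from their group means with correlations of −0.0596, 0.197, 0.0933 and 0.258 for replicates 1 to 4. Libraries of different numbers had correlations from −0.364 to 0.252. For SAP97-cKO replicates 2, 3 and 4 the control of the same number had the highest correlation. Summed choroid plexus markers were highest in replicate 2 and lowest in replicate 4 in both genotypes. The labels state no pairing, so the main fit used none, and whether the numbers mark pairs was not settled. A replicate block in edgeR gave 256 called genes, 8 of the pathway lists and 0 of the 9 (2 at an unadjusted p under 0.05), with H2-D1 at −0.45 and B2m at −0.23. Nlrc5 could not be tested with at least 10 counts in every library.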
